A study of Mus musculus with 20 samples.

Results

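The genes described here encode enzymes that add or remove acetyl and methyl groups on histones, and they number 48 mouse genes in 5 classes: 9 histone deacetylases, 5 sirtuins, 12 lysine demethylases, 16 lysine methyltransferases and 6 lysine acetyltransferases. They were chosen by name, and their CpGs are all those measured between 1 kb before the lower and 1 kb after the upper end of each gene on the mm10 build. This gave 5521 CpGs of the 1132579 on chromosomes 1 to 19, X and Y that were measured at both ages, from 7 in Hdac11 to 676 in Prdm16. Gene ends are the CpGs within 1 kb of either end of the gene, and the gene body is the rest.

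DNA came from microglia-enriched homogenate of mouse brains and was measured by reduced representation bisulfite sequencing, in which DNA is cut at CCGG sites and each CpG gets the percentage of reads that were methylated. HEM mice carry full-length human wild-type α-synuclein driven by the murine Thy-1 promoter from the X chromosome, and WT mice are their controls. Both have the B6D2F1/J background (a hybrid of 2 inbred strains), although the background is not given for 1 of the HEM libraries of 13 months. The groups are 4 WT and 4 HEM libraries of 3 months, and 4 WT and 8 HEM libraries of 13 months. The series' design counts 3 WT mice at 3 months where 4 libraries carry that label. The Thy-1 promoter is mainly active in neurons. Sex is not stated. The 2 ages were deposited as separate sets with different lists of CpGs, so age and set cannot be told apart.

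Histone acetyltransferases such as Crebbp and Ep300 add acetyl groups that open chromatin, and the zinc-dependent deacetylases and the NAD-dependent sirtuins take them off. Methyltransferases and demethylases place and remove methyl marks that go with either active genes (the Kmt2 and Setd1 enzymes) or silenced ones (Ezh2 of the polycomb complex, Setdb1, Ehmt1 and Ehmt2). In microglia several of these enzymes, among them Kdm6b, Hdac1 and Hdac2, are known for setting inflammatory gene programmes. DNA methylation is a separate mark on the DNA itself: CpG-rich start sites of active genes are commonly free of it and the bodies of active genes commonly carry it.

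Start-site windows of 300 bases, 250 before to 50 after a start, were taken from RefSeq on GRCm38.p6, the same assembly as mm10. The table held 52 windows for 36 of the 48 genes. It held none for Hdac1, Hdac3, Hdac10, Kdm2a, Kdm3b, Kdm4b, Kdm5a, Kdm6b, Kmt2b, Kmt2e, Setd1b and Kat6a. Of the 52 windows, 36 from 28 genes had at least 1 measured CpG. The next 6 windows show the range of CpG content behind these measurements, with each CG in capitals. The 2 windows each of Hdac7 and Kdm4c set the outermost annotated start, poor in CpGs and not measured, against a start farther inside the gene. The Kdm2b window lies 88903 bases inside its gene, and the Kdm7a window holds the most CGs of the 52.
Kdm7a start: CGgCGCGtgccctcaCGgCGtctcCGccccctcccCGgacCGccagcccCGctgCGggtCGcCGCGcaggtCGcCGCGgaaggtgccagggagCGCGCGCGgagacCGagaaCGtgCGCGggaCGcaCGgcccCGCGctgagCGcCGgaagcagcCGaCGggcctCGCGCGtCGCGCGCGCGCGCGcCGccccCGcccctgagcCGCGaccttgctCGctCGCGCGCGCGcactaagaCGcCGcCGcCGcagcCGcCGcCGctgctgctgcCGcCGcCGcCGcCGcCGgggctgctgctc
Kdm2b inner start: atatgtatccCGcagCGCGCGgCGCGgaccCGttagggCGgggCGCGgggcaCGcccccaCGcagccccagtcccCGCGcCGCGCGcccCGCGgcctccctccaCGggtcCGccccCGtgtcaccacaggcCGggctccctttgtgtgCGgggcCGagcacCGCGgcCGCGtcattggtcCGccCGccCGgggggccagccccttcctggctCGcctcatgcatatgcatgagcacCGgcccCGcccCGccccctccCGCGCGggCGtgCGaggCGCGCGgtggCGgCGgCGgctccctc
Hdac7 outer start: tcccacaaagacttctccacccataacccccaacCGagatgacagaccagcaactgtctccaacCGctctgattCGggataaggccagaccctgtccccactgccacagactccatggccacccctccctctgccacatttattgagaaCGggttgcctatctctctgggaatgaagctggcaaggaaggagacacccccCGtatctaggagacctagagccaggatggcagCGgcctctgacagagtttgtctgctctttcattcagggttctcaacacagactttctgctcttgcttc
Hdac7 inner start: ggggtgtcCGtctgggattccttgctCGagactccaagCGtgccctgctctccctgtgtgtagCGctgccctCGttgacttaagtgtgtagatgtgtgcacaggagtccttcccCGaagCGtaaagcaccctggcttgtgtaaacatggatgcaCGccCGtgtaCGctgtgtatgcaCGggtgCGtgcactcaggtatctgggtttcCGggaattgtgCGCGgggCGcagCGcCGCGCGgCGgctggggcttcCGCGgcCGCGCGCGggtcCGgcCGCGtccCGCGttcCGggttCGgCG
Kdm4c outer start: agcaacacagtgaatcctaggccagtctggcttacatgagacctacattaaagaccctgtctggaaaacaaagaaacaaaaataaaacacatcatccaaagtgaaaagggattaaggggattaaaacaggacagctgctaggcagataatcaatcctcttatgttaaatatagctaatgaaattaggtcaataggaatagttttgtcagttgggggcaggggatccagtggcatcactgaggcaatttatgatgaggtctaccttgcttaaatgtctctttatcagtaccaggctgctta
Kdm4c inner start: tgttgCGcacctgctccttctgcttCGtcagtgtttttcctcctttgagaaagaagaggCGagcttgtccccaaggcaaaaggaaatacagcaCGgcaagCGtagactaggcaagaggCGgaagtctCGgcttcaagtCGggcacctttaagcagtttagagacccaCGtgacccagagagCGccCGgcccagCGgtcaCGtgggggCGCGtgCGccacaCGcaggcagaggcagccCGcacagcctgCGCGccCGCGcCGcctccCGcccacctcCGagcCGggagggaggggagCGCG

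The Kdm7a window lies at chr6:39206724-39207023 on the minus strand and holds 65 CGs, with 51 measured positions (a CG can give 1 on each strand). Over these the level was 0.0674% in WT and 0.0734% in HEM libraries of 3 months, and 0.126% and 0.181% at 13 months. The internal Kdm2b window at chr5:122900318-122900617, minus strand, holds 47 CGs and 37 measured positions, with 0.0736% in WT and 0.24% in HEM at 3 months. In Hdac7 the outer window at chr15:97844453-97844752, minus strand, holds 6 CGs, none measured. The inner one at chr15:97831718-97832017 holds 35 CGs with 23 measured positions, at 0.203% in WT of 3 months. The outer Kdm4c window at chr4:74242247-74242546, plus strand, holds 0 CGs. The inner one, chr4:74251629-74251928, holds 28 CGs with 19 measured positions at 0.142%. All 36 measured windows stayed under 1% in each of the 4 groups, the highest group mean being 0.87% in Prdm16. Some of these windows overlap, such as the 2 inner ones of Kdm2b, each with 37 measured positions. Over the whole table of 32851 windows, 86.7% of the measured ones had a mean over the 20 libraries under 5%. The share of all windows under 1% is not given.

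The motif CCGG, the cut site, was present in 43 of the 52 windows (82.7%), against 52.8% of all windows of that length. It reads the same on both strands and contains the CG counted above. None of the 9 member windows without it was measured, and 36 of the 43 with it were. Over all windows 69.9% of those with CCGG and 0.219% of those without it had a measured CpG.

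Most of the enzyme genes had ends low in methylation and bodies above them. In the WT libraries of 3 months, 68.5% of the member CpGs were under 10% methylated, 21.4% were between 10 and 90%, and 10.1% were over 90%. For all CpGs of the libraries these shares were 58.5%, 28.5% and 13%. Of the 45 genes with 3 or more CpGs at their ends, 31 had ends under 1% and 36 (80%) under 5%, against 68.8% of all coding genes for the latter. Of the 42 with 3 or more body CpGs, 23 (54.8%) had bodies over 70%, against 49.3% of all coding genes. In 37 of the 39 genes with both, the body was higher than the ends in every one of the 20 libraries. That held for 84.2% of the 9602 coding genes with both. Hdac4 and Kdm7a were the other 2.

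**Figure D1:**
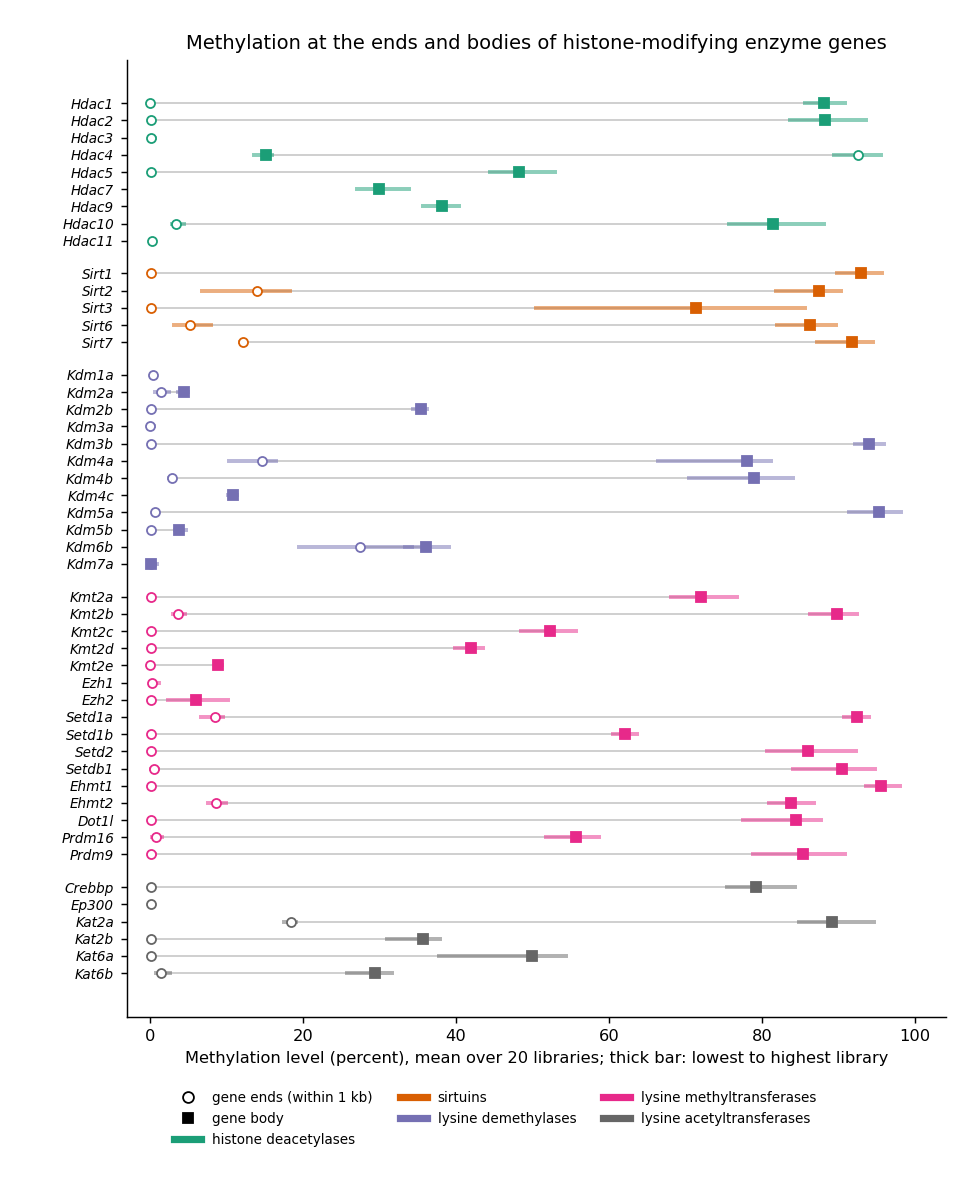
Methylation level in percent (x axis) of the gene ends (open circles) and gene bodies (filled squares) of each enzyme gene (y axis), coloured by class. Symbols are means over 20 libraries, thick bars run from the lowest to the highest library, and features with fewer than 3 CpGs are left out. Most ends lie near 0 and most bodies above 70%, while the Hdac4 ends lie near 93% and the Sirt3 body has the widest bar.

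Means over the members lay close together in the 4 groups. Over the 45 member ends the level was 4.95% ± 0.0517 (SD, n = 4) in WT of 3 months, 4.87% ± 0.0319 (n = 4) in HEM of 3 months, 4.84% ± 0.0296 (n = 4) in WT of 13 months and 4.98% ± 0.0868 (n = 8) in HEM of 13 months. Over the 42 bodies it was 60.3% ± 0.73, 60.5% ± 0.317, 60.7% ± 0.967 and 60.8% ± 0.753 in the same order. All coding genes averaged 12.3% at ends and 58.7% in bodies in WT of 3 months.

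The classes differed in level. Sirtuin bodies, 5 genes, averaged 85.6% ± 1.54 in WT of 3 months. Methyltransferase bodies, 15 genes, averaged 66.6% ± 0.872, acetyltransferase bodies 56.6% ± 1.71 (5 genes), deacetylase bodies 55.2% ± 0.8 (7 genes) and demethylase bodies 43.7% ± 0.6 (10 genes). These SDs are over libraries, and the genes of a class lay much farther apart: the demethylase mean includes Kdm7a, Kdm5b, Kdm2a and Kdm4c, from 0.26% to 10.9%, beside Kdm3b at 93.9% and Kdm5a at 93.2%. At the ends the deacetylases were highest, at 13.8% ± 0.32 over 7 genes, and the methyltransferases lowest, at 1.54% ± 0.0753 over 16. The deacetylase mean rests on Hdac4, whose ends stood at 92.7% with 12 CpGs. These class means describe the CpGs that were sampled and were not tested.

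Among the deacetylases, the whole-gene level in WT of 3 months ran from 0.163% in Hdac11 to 37.5% in Hdac9, a class IIa deacetylase. Among the sirtuins it ran from 3.86% in Sirt1 to 40.3% in Sirt6. Kdm7a, a demethylase, was lowest of its class at 0.0912% and Kdm4a, which removes methyl marks of histone H3, highest at 58.1%. The methyltransferases ran from 0.385% in Ezh1 to 47.6% in Prdm16. The acetyltransferases ran from 0.91% in Ep300 to 40.2% in Kat2a, the catalytic subunit of the SAGA complex. These whole-gene means weigh each CpG alike, so a gene with many CpGs at its start reads low whatever its body carries. Ep300 had 125 of its 126 CpGs at the ends, and Ezh1 all 40. The regions that ranged most over the 20 libraries were Kdm4a by 11.85 points (4.45 without replicate 1 of the WT mice of 13 months, at 48.2%), Sirt2 by 9.53, Hdac7 by 6.8 and Kdm6b by 6.34. The median range was 2.14 points over the member regions and 3.26 over all genes.

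Most gene starts were nearly free of methylation, while most of the few far ends with CpGs were methylated. The promoter table gave the strand of 36 genes, and 31 of those had CpGs within 1 kb of the 5′ end of the gene, 2039 in all. The level there was under 1% in every group in 29 of the 31. The other 2 were Sirt6, at 6.23% in WT of 3 months, and Kat6b, at 1.42%. Around the far end only 8 of the 36 had CpGs, and 6 of them were above 40% in every group. In WT of 3 months these far ends stood at 92.7% in Hdac4, 63.7% in Sirt2, 72.8% in Kdm4a, 83.5% in Setd1a, 45% in Ehmt2 and 92.8% in Kat2a. The Sirt7 far end stood at 19.8% over 63 CpGs. The Kmt2d far end was unmethylated, at 0.137% over 25 CpGs, and lies next to Prkag1. Of the 9 members with ends at 5% or more in that group, 7 (Hdac4, Sirt2, Sirt7, Kdm4a, Setd1a, Ehmt2 and Kat2a) held such far-end CpGs, and the others were Sirt6 and Kdm6b. In 24 of the 48 genes the 1 kb margin or the gene itself overlaps another coding gene, so some end CpGs also belong to a neighbour. Examples are Rinl beside Sirt2, Slc44a4 beside Ehmt2, Hsd3b7 beside Setd1a, and Tmem88 and Dnah2 beside Kdm6b. Kdm6b has no strand in the table. Its end at the lower coordinate stood at 39.4% over 27 CpGs in WT of 3 months and the other at 0.334% over 14.

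Low bodies held long unmethylated stretches, some of them directly past the 1 kb that divides ends from bodies. The 3 bodies of lowest mean were those of Kdm7a at 0.26%, Kdm5b at 3.55% and Kdm2a at 4.42% in WT of 3 months. In Kdm2a, 102 neighbouring body CpGs spanning 1454 bases were each under 10% over the 20 libraries, and the remaining body CpGs averaged 79.6%. In Kdm5b 27 of the 28 body CpGs were under 10%. The Kdm7a stretch begins 1097 bases from the start of the gene, the Kdm5b stretch 1037 and the Kdm2a stretch 1149 from the nearer end. With ends of 2 kb the Kdm5b body stood at 87.3% and the Kdm2a body at 12.2%, and Kdm7a had no body CpGs left. The same change took the bodies of Kat6b from 29.1% to 78.5%, Kat2b from 36.5% to 72.8%, Kmt2c from 52.2% to 78.6% and Kat6a from 50.7% to 74.1%. Hdac4, which shuttles between nucleus and cytoplasm, had 97 neighbouring low CpGs over 1684 bases, 14628 or more bases from either end, and its body stood at 15.3% with either width.

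Some of these stretches lie at a start in the promoter table that is more than 1 kb inside the gene. In Hdac4 and Kmt2d it is the only start listed, and in Kdm2b, Kdm4c and Hdac7 an outer start is listed as well. In Hdac4 the 97 body CpGs within 1 kb of such a start stood at 0.162% ± 0.133 in WT of 3 months, and the other 24 at 76.7% ± 1.91. In Kdm2b, a subunit of a polycomb complex, the values were 0.743% ± 0.0456 for 127 CpGs and 75.4% ± 0.583 for 111. In Kmt2d, which methylates histones at enhancers, they were 0.114% ± 0.033 for 114 CpGs and 79.7% ± 1.4 for 129. In Kdm4c they were 0.141% ± 0.0159 for 59 and 81.1% ± 3.02 for 9. In Hdac7 they were 2.55% ± 0.49 for 64 and 51.1% ± 1.67 for 77. Each of these 5 genes showed the same split in the other 3 groups. In HEM of 13 months, Hdac4 stood at 0.172% ± 0.0596 near the start and 76.5% ± 2.06 elsewhere (n = 8). Hdac9 also had 53 neighbouring low CpGs over 454 bases, and no start in the table lies within 1 kb of them.

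**Figure D2:**
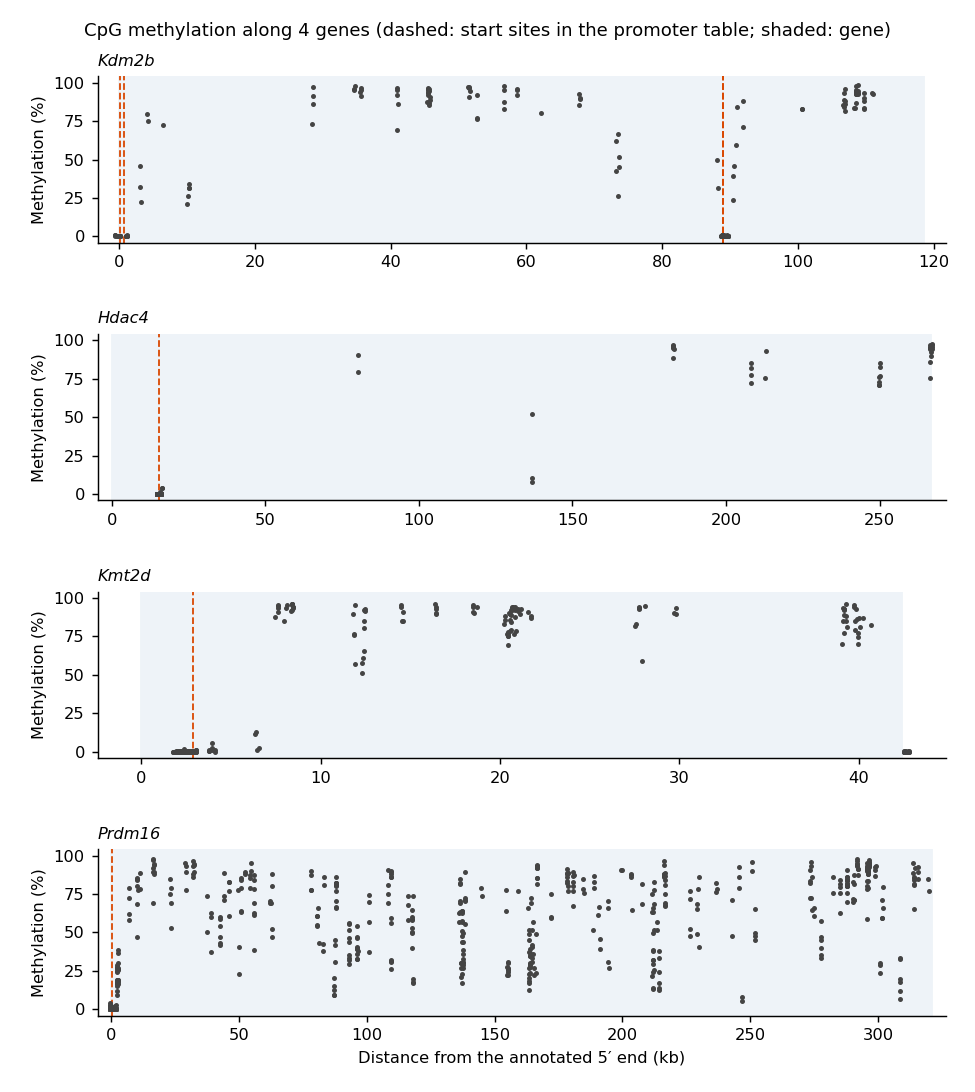
Mean methylation of each CpG over 20 libraries in percent (y axis) against the distance from the annotated 5′ end in kb (x axis) in Kdm2b, Hdac4, Kmt2d and Prdm16. Shading marks the gene and dashed lines the start sites of the promoter table. CpGs at the starts, the inner ones included, lie near 0, and most others are high, with a wide spread of levels along Prdm16.

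Prdm16, a methyltransferase-related regulator of cell fate, and Kdm4a had mostly intermediate CpGs, 65.7% and 61% of them lying between 10 and 90% in WT of 3 months. Of the Prdm16 gene's 676 CpGs 24.4% were under 10% in WT of 3 months, the smallest share of any methyltransferase gene. Its 584 body CpGs averaged 55% ± 0.886 in that group, with 43.2% of them above 70% over all libraries.

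Genotype at 13 months was the first comparison: HEM against WT, 8 libraries against 4. No member was called in any of the 3 gene features by the rule used throughout, an adjusted p under 0.05 in limma with a difference of at least 5 points. Of the 48 genes 37 could be tested as whole regions, 8 as ends and 37 as bodies, the others having means under 5% or over 95%, or fewer than 3 CpGs. The same rule called 0% of the 12353 regions, 0% of the 4416 ends and 0% of the 10918 bodies of all coding genes. At an unadjusted p under 0.05 stood 0 member regions against 3.76% of all regions, 2 member ends against 5.21%, and 1 body against 4.14%. Differences over the member regions ran from -0.788 to 2.98 points with a median of 0.0861, and 36 of 37 lay between the 5th and 95th percentiles of all genes, -2.36 and 2.04. Kdm4a was the one outside, and without replicate 1 of the WT mice its difference was 0.614 points, inside that band. No member had all HEM libraries on one side of all WT libraries. Over all genes the HEM libraries lay wholly above in 0.146% of regions, 0.362% of ends and 0.11% of bodies, and wholly below in 0.138%, 0.204% and 0.119%.

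By class, 4 of 7 deacetylase regions were higher in HEM mice, 2 of 4 sirtuins, 5 of 9 demethylases, 9 of 13 methyltransferases and 3 of 4 acetyltransferases. Of all coding gene regions 50.6% were higher in HEM mice. Class medians of the difference lay between -0.35 and 0.366 points, against 0.00853 over all genes. The regions of smallest p with a higher mean in HEM mice were Dot1l at 0.798 points, Setd1a at 0.872, Kdm4a at 2.98, Kdm4b at 1.04 and Kat6b at 0.645. Those with a lower mean were Sirt3 at -0.764, Hdac1 at -0.468, Kdm2b at -0.341, Prdm16 at -0.788 and Hdac9 at -0.586. The adjusted p of each of these 10 in limma was 0.9999. Several of these values rest on replicate 1 of the WT mice of 13 months. Without it the differences were 0.614 points in Kdm4a, 0.158 in Kdm4b, 0.118 in Kat6b, 0.388 in Dot1l, 0.504 in Setd1a, -0.774 in Hdac1 and -0.247 in Hdac9. Prdm16 stood at -0.28 and Hdac9 at -0.214 without replicate 8 of the HEM mice.

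The Kdm4a ends had the smallest p of the member ends. WT libraries of 13 months stood at 10.4, 13.9, 13.9 and 14.4%, and the HEM libraries ran from 13.4% over a median of 15.5% to 16%. The groups overlapped, since 1 HEM library lay below 3 of the WT libraries. The difference was 2.17 points (limma, adjusted p = 0.915). Without the WT library at 10.4%, replicate 1, it was 1.245 points.

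Setd1a, which methylates histones at active start sites, came next. Its ends stood at 6.66, 7.59, 8.36 and 8.87% in WT and from 8.52% over a median of 8.9% to 9.54% in HEM mice, a difference of 1.1 points (adjusted p = 0.915). The 2 groups overlapped in 1 WT library, and without WT replicate 1 the difference was 0.694 points. The Kdm6b ends differed by 3.49 points (adjusted p = 0.963), and by 2.17 without WT replicate 7. The Dot1l body, of the gene for the enzyme that methylates the core of histone H3, was 85.8% in HEM and 82.4% in WT mice (adjusted p = 0.997). Its WT libraries ran from 77.5% to 86.2%, wider than the HEM range of 84% to 87.8%, and without WT replicate 1 the difference of 3.4 points was 1.78. The Sirt3 body, at 66.5% and 73.7%, and the Ezh2 body, at 5.48% and 7.58%, had the next smallest p-values, each with an adjusted p of 0.997. The Ezh2 difference of -2.1 points was -1.2 without WT replicate 1.

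Genotype at 3 months was the same comparison with 4 libraries a group. No member region, end or body was called, out of 36, 9 and 38 tested, and the rule called 0% of 12302 regions, 0% of 4354 ends and 0% of 10924 bodies. At an unadjusted p under 0.05 stood 1 region (3.75% of all), 0 ends (4.36%) and 3 bodies (4.11%). Region differences ran from -2.1 to 1.14 points with a median of -0.0849, against -0.0531 over all genes. In this age group 4 of 4 sirtuin regions were higher in HEM mice, 4 of 7 deacetylases, 3 of 8 demethylases, 3 of 13 methyltransferases and 1 of 4 acetyltransferases. Of all coding gene regions 45.9% were higher.

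Kdm6b, the demethylase that removes the polycomb methyl mark, had the smallest p. Its region stood at 35.2, 34.2, 34.6 and 35% in WT and at 34, 31.3, 32.1 and 33.4% in HEM mice, so that no HEM library reached the WT range. The difference was -2.1 points (adjusted p = 0.998). Regions with HEM below WT in all libraries made up 1.06% of all genes, and those with HEM above WT 0.943%. Hdac9 was the member in the latter case, with WT libraries at 37.6, 36.4, 38.18 and 37.9% and HEM libraries from 38.19% to 38.4% (adjusted p = 0.998). Both genes also separated as bodies (all Hdac9 CpGs are body CpGs), where 0.989% of all genes lay wholly below and 1.03% wholly above. No member end did, against 1.47% of all ends below and 1.22% above. The other higher regions were Sirt3, Sirt6, Kdm5a and Prdm9, by 0.163 to 1.14 points (Kdm5a, at 0.163, was at -0.0254 with all CpGs listed at 3 months), and the other lower ones Kmt2c, Kmt2d, Setd2 and Kat6a, with differences from -0.636 to -0.163 points. Among the bodies Kdm5a was 96.1% in HEM and 93.2% in WT mice, Sirt6 87.6% and 85.1%, and Kdm6b 34.9% and 37%, each with an adjusted p of 0.997. Of the ends Kdm6b at -2.06 points, Hdac4 at -1.36 and Ehmt2 at -0.384 had the smallest p-values, with an adjusted p of 0.994 each. Leaving out single libraries moved these values widely: the Kdm6b ends were at -0.555 without HEM replicate 2, the Hdac4 ends at -0.492 without WT replicate 3 and the Ehmt2 ends at -0.00342 without WT replicate 4.

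**Figure D3:**
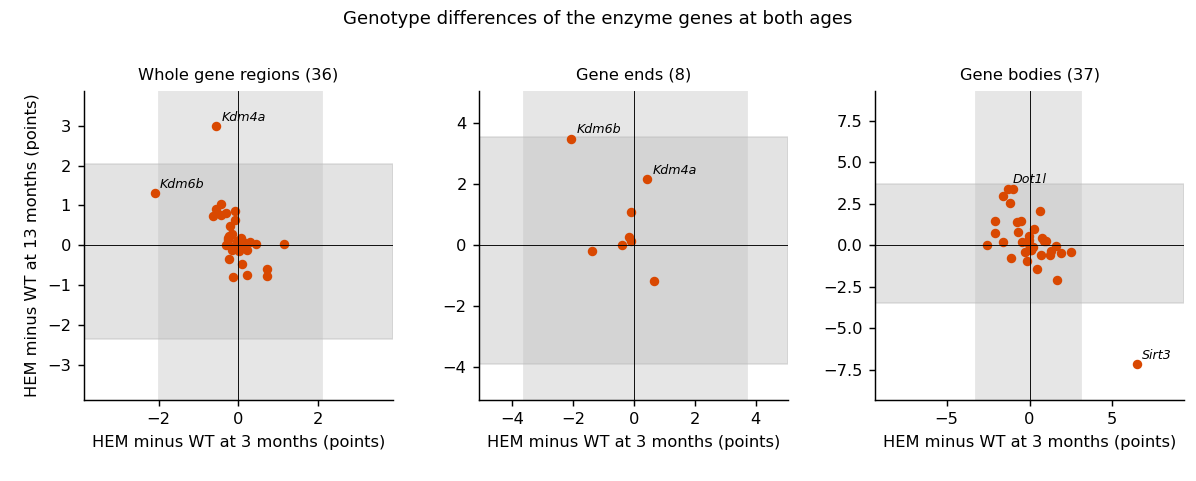
Difference in methylation level between HEM and WT mice in percentage points at 3 months (x axis) and at 13 months (y axis), 1 point per enzyme gene, for whole regions, ends and bodies. Grey bands run from the 5th to the 95th percentile over all coding genes at each age. Most members lie inside both bands, with Sirt3 outside both for bodies.

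Age was compared within each genotype, 13 against 3 months. In WT mice no member was called among 37 regions, 9 ends and 37 bodies, and the rule called 0% of all genes in each of these features. At an unadjusted p under 0.05 stood 1 region (4.63% of all), 1 end (5.09%) and 1 body (4.87%). Prdm16 was the region of smallest p, at 47.6% in the younger and 49.1% in the older mice (adjusted p = 0.944), followed by Kdm5a and Prdm9, higher by 0.276 and 1.07 points. Kdm5a was the only member region whose older libraries all lay above the younger ones, as 2.25% of all regions did, and 0.592% lay wholly below. Among ends and bodies no member separated the ages, where 1.99% and 2.19% of all genes lay wholly above and 1.1% and 0.504% wholly below. The Sirt6 ends stood at 5.03, 5.77, 8.02 and 6.11% in the younger and 4.78, 3.43, 4.31 and 5.19% in the older mice (adjusted p = 0.873), with 1 older library above the lowest younger one. The Kdm4a and Setd1a ends differed by -1.575 and -0.696 points, with an adjusted p of 0.973, and by -0.65 and -0.293 without replicate 1 of the older mice. The Sirt7, Prdm9 and Hdac2 bodies were higher by 2.74, 5.06 and 3.17 points, each with an adjusted p of 0.956.

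In HEM mice, 8 libraries of 13 months against 4 of 3 months, again no member was called and the rule called 0% of all regions, ends and bodies. The unadjusted p was under 0.05 for 3 of 37 member regions, 1 of 9 ends and 1 of 37 bodies, against 13.6%, 16.3% and 12.1% of all genes. No member separated the ages in HEM mice. Over all genes the older libraries lay wholly above in 1.09% of regions, 1.36% of ends and 0.906% of bodies, and wholly below in 0.349%, 0.637% and 0.339%. Over all genes the median difference was 0.304 points for regions, and over the members it was 0.162. In this comparison 12 of 13 methyltransferase regions were higher at 13 months, by a class median of 0.417 points, and 1 of 4 sirtuins was, with a class median of -1.4 points. Of all coding gene regions 66% were higher at 13 months. These HEM libraries of 3 months also enter the genotype comparison at 3 months, so the 2 sets of values are not independent.

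The Kdm6b ends had the smallest p of all member features in this comparison. The HEM libraries of 3 months stood at 23.8, 19.5, 24.3 and 28.4%. Those of 13 months ran from 26.8% over a median of 30.4% to 34.3%, and 3 of the 4 younger libraries lay below all of them. WT libraries ran from 24.1% to 28.7% at 3 months and from 22.8% to 31.7% at 13 months. The difference with age in HEM mice was 6.23 points (limma, p = 0.00363, adjusted p = 0.164), and a two-sided exact permutation test gave p = 0.00606, where 0.00202 is the smallest possible. That p adjusted over the 12 exact tests run on 3 singled-out features (Kdm6b ends, Sirt2 ends and Sirt3 body, 4 comparisons each, chosen after their values were seen) was 0.0727. The Kdm6b region stood at 32.7% in the younger and 35.1% in the older HEM mice (adjusted p = 0.307).

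The Sirt3 body, 8 CpGs of the gene for the main mitochondrial sirtuin, had the widest spread of any member feature with 3 or more CpGs. The HEM libraries of 3 months stood at 85.2, 85.6, 71.9 and 70.8%, and those of 13 months ran from 50.5% over a median of 68.2% to 73.7%. WT libraries ran from 66% to 76.1% at 3 months and from 65.9% to 77.8% at 13 months. The groups overlapped in 2 of the younger libraries, and the difference was -11.9 points (limma, p = 0.0161, adjusted p = 0.344; exact permutation p = 0.0444, adjusted 0.226). The other regions of smallest p were Kdm1a at 0.733 points and Sirt3 at -1.32 points, with adjusted p-values of 0.319 and 0.353. The Ehmt2 and Sirt2 ends differed by 0.693 and -3.92 points, with adjusted p-values of 0.319 and 0.321. The Ehmt2 value had the opposite sign when ends were 2 kb wide. The Hdac1 and Dot1l bodies differed by -1.52 and 2.24 points, with adjusted p-values of 0.415 and 0.418, and the Dot1l value was 0.825 without replicate 1 of the younger mice.

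Whether the genotype difference itself differed between the ages was tested as an interaction, HEM minus WT at 13 months less that at 3 months. No member passed an adjusted p of 0.05 and no coding gene did (0% of regions, ends and bodies). The unadjusted p was under 0.05 for 1 region (4.97% of all), 2 ends (6.07%) and 3 bodies (4.86%). Kdm6b had an interaction of 3.41 points in its region (adjusted p = 0.91) and 5.55 points at its ends (adjusted p = 0.788). The Sirt3 and Dot1l regions followed at -1.48 and 1.11 points, with the same adjusted p as the Kdm6b region. The Setd1a and Kdm4a ends gave 1.19 and 1.74 points, and 0.787 and 0.819 without replicate 1 of the WT mice of 13 months. In bodies Sirt3 gave -13.6 points, Dot1l 4.71 and Ezh2 -3.78, each with an adjusted p of 0.916. The 4 sirtuin regions tested all had negative values, with a median of -1.03 points, against 0.0733 over all genes. Of all coding gene regions 53.6% had positive values. The mean over microglia marker genes was 0.928 points higher in HEM than WT mice at 3 months and differed by -2.805 points at 13 months, and its part in these values was not tested.

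**Figure D4:**
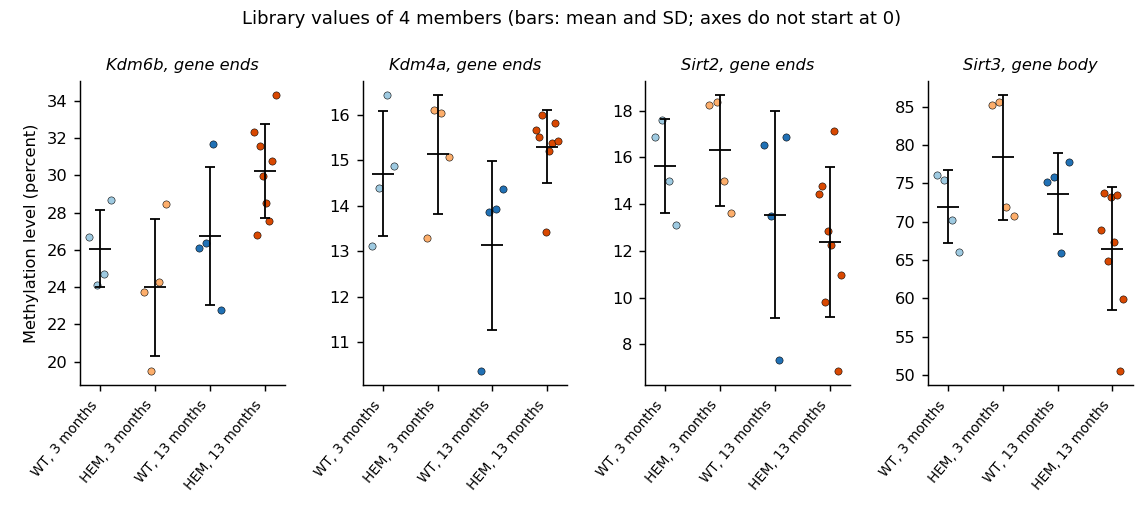
Methylation level in percent (y axis) of 4 member features in every library, by group (x axis), with bars for the mean and SD. In the Kdm6b ends the HEM mice of 13 months have the highest mean while the groups overlap, in the Kdm4a ends 1 WT library of 13 months lies apart at 10.4%, and in the Sirt2 ends and Sirt3 body the libraries of every group spread widely.

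Single CpGs were tested in the same way, with a difference of at least 10 points. The rule called 0.00157% of 446212 CpGs for genotype at 13 months, 0% of 440245 at 3 months, 0.0183% of 442157 for age in WT, 0.0305% of 445659 for age in HEM mice, and 0.000224% of 446428 for the interaction. None of the 1598 to 1614 member CpGs tested was called in any of these. At an unadjusted p under 0.05 stood 98 of 1598 for genotype at 13 months (5.83% of all CpGs), 76 of 1607 at 3 months (4.55%), 71 of 1602 for age in WT (4.79%), 190 of 1604 for age in HEM mice (10.4%) and 101 of 1614 for the interaction (6.28%).

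The member CpG of smallest p for genotype at 13 months lies in the body of Prdm16 at position 154448696 of chromosome 4. It stood at 92.3, 100, 100 and 90.9% in WT and from 62.1% to 87% in the HEM libraries of 13 months. The groups did not overlap, but the CpG was picked for the smallest p of 1598 tested. The share of all CpGs without overlap is not given. At 3 months it stood at 74.6, 88.9, 88.9 and 87% in WT and 91.5, 89.2, 93.2 and 79.3% in HEM mice. The difference at 13 months was -23.6 points (adjusted p = 0.282), and the interaction -27 points (adjusted p = 0.633). A CpG of Ehmt2 at position 34905281 of chromosome 17 and another of Prdm16 at 154345424 followed, with differences of -7.77 and -7.13 points.

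For age in WT mice a CpG of Kdm4a at position 118152598 of chromosome 4 had the largest difference among the named ones. It stood at 74.8, 75.6, 61.2 and 56.8% in the younger and at 30.4, 31.8, 30.4 and 46.9% in the older WT mice. The HEM libraries ran from 44.4% to 69.2% at 3 months and from 32.3% to 72.6% at 13 months, so that they spanned much of both WT groups. The difference in WT mice was -32.2 points, with an adjusted p of 0.975. For age in HEM mice the CpG of smallest p lay in Hdac9 at 34714252 of chromosome 12 (-14 points, adjusted p = 0.201). It differed by -8.62 points without replicate 1 of the younger mice, which stood at 35.4%. Next came 1 of Kat6b at 21498993 of chromosome 14 (9.9 points, adjusted p = 0.201). After it came 1 of Kdm6b at 69398210 of chromosome 11 (14.5 points, adjusted p = 0.274). The Kdm6b CpG lies before the lower end of the gene, in its 1 kb margin. The Kat6b CpG stood at 2.74, 1.48, 3.96 and 6.09% in the younger HEM mice and from 7.22% to 19.8% in the older ones. WT libraries ran from 8.33% to 13.7% at 3 months and from 3.39% to 16.7% at 13 months. Its interaction was 11.8 points (limma, adjusted p = 0.711). It was picked for its small p, and the share of all CpGs without overlap is not given. Kat6b encodes an acetyltransferase and this CpG lies just before its annotated start. The remaining CpGs named by the same rule lay in Kdm4a, Kdm6b and Ehmt2 for genotype at 3 months (11.4, -7.78 and 9.02 points), in Setd1b and Hdac9 for age in WT (9.32 and 7.45 points) and in Setd1b for the interaction (-22.95 points).

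Libraries of the same group also differed at single CpGs and in stretches of neighbouring CpGs. A range of 60 points or more over the 20 libraries was found at 49 member CpGs in 17 genes, 0.888% of the member CpGs against 1.13% of all. Kdm6b held 13 of them, Prdm16 11 and Sirt2 5. The widest was a Kdm6b CpG at position 69400960 of chromosome 11. It stood at 95.9, 94.1, 47.4 and 97.3% in WT and 96.4, 93.1, 0 and 0% in HEM mice of 3 months, and at 45.1, 0, 47.4 and 95.1% in WT mice of 13 months. Its HEM libraries of 13 months ran from 45.1% to 97.7%. Every library thus lay at 0, between 45.1% and 54.9%, or at 89.3% and above. A CpG of Hdac9 at position 34883140 of chromosome 12 also ran from 0 to 95.4%, with 3 of the 4 WT libraries of 3 months between 44.4% and 60%. Whether the DNA sequence at these CpGs differed between the mice was not tested.

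A stretch of Kdm6b, 27 neighbouring CpGs at chr11:69399459-69400891 that each ranged by 25 points or more, averaged 71.8% ± 4.13 in WT and 62.7% ± 8.59 in HEM mice of 3 months, and 68.5% ± 11.3 and 70.3% ± 5.81 at 13 months. Stretches of 6 or more such CpGs were found in 16 of the gene regions, under a rule set after the values were seen. The Kmt2b stretch spanned 28 bases and the Hdac9 stretch 101387. The Ehmt2 stretch lies past the end of that gene, within Slc44a4. The share of all genes with such a stretch is not given. In Kmt2d, 13 CpGs at chr15:98853499-98853822 stood at 55.2% in replicate 1 of the WT mice of 13 months and between 73.8% and 88.9% in the other 19 libraries. That same library was lowest of all 20 in 10 of the 37 member bodies with means between 5 and 95% (27%), and in 13.3% of all such gene bodies. Replicate 6 of the HEM mice of 13 months was highest in 13 of the 37 (35.1%), and in 22.2% of all. Replicate 8 of that group was lowest in 7 (18.9%), and in 27.4% of all.

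The Sirt2 ends and the Sirt3 body varied together with the mean over microglia marker genes. Sirt2 encodes a mainly cytoplasmic deacetylase of tubulin. Its start was unmethylated, at 0.105% in WT of 3 months over 34 CpGs, and its far end held the variation. A stretch of 12 neighbouring CpGs at chr7:28786986-28789090 begins in the Sirt2 body and ends within Rinl, so it is not the same set as the Sirt2 ends. These CpGs stood at 71, 73.4, 63.6 and 57.1% in WT and 76.5, 74.3, 62.9 and 58.7% in HEM mice of 3 months. In WT of 13 months they stood at 69.1, 57.4, 35.4 and 69.6%, and in HEM of 13 months they ran from 32.6% over a median of 54.7% to 71.1%. All 4 groups overlapped. The Sirt2 ends as a whole gave exact permutation p-values of 0.608 for genotype at 13 months, 0.6 at 3 months, 0.514 for age in WT and 0.0566 for age in HEM mice, adjusted over the 12 tests to 0.73, 0.73, 0.73 and 0.226.

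The microglia marker genes, of which 10 of 12 had 3 or more CpGs, averaged 54.6% ± 2.53 in WT and 55.6% ± 3.96 in HEM mice of 3 months, and 53.4% ± 4.96 and 50.6% ± 4.95 at 13 months. Over libraries this mean ran from 44.5% to 59.9%. Of its 10 genes Itgam alone was higher in HEM mice of 13 months than in those of 3 months, at 81.2% against 79.1%. The marker mean was compared with each of the 83 member features with a mean of 5 to 95%, a relation looked at after the values were seen. The points share library preparation and the cell content of the sample, and depth is unknown. Over the 20 libraries the Sirt2 ends gave Pearson's r = 0.93 and Spearman's rho = 0.916, each with permutation p = 1e-05, the smallest that 100000 permutations can give, and an adjusted p of 0.00021. Within the libraries of 3 months r was 0.949 and within those of 13 months 0.9115, and without the 2 libraries farthest from the median of the markers it was 0.899. The Sirt3 body gave r = 0.8535 and rho = 0.874 with the same p-values, 0.922 and 0.806 within the ages, and 0.812 without the 2 farthest libraries.

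**Figure D5:**
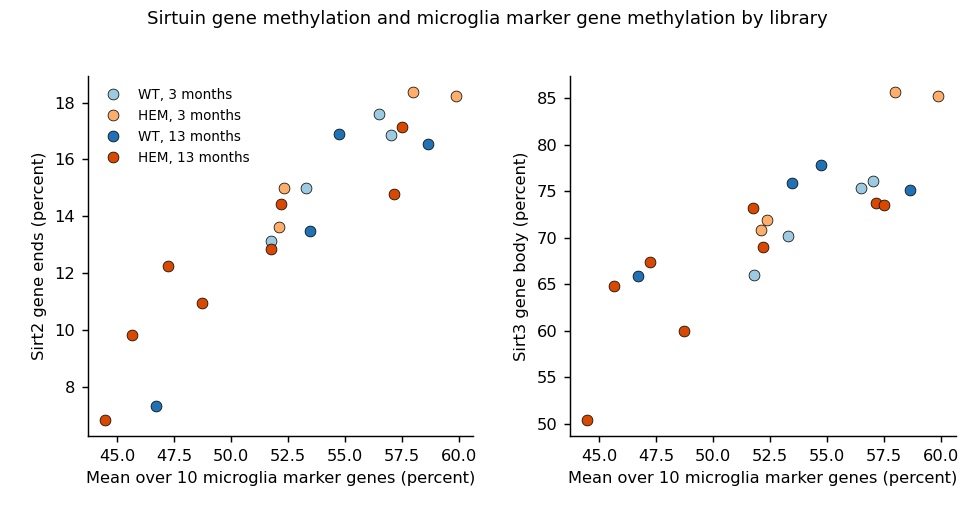
Methylation level in percent of the Sirt2 ends (left) and the Sirt3 body (right) against the mean over 10 microglia marker genes in percent (x axis), 1 point per library, coloured by group. Libraries with lower marker gene methylation had lower values in both, across all 4 groups.

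Other members ran the opposite way. The Kdm6b ends gave r = -0.709 and rho = -0.762 (adjusted permutation p = 0.0056 and 0.0038), r = -0.617 and -0.661 within the ages, and -0.671 without the 2 farthest libraries. The Kat6b region gave r = -0.733 and the Kat2a region -0.729, with adjusted p-values of 0.0025 and 0.0047. For regions, 17 of 37 members had an adjusted p under 0.05, 4 positive and 13 negative. For bodies it was 13 of 37, 4 positive and 9 negative, and for ends 3 of 9. An r as far from 0 as that of the weakest of these members was found in 25.2% of all regions, 25.5% of all bodies and 23% of all ends, against 45.9% (17 of 37), 35.1% (13 of 37) and 33.3% (3 of 9) of the members. Over all coding genes the r of regions ran from -0.69 at the 5th to 0.689 at the 95th percentile, and 2.68% had r of 0.8 or more. Fewer or more of the enriched cells and a different level within them cannot be told apart in these bulk samples. With the marker mean as a covariate the difference with age in HEM mice was 4.46 ± 1.77 points (SE) in the Kdm6b ends, in place of 6.23, and -4.635 ± 3.235 points in the Sirt3 body, in place of -11.9. The adjusted p in limma for these differences with age was then 0.575 and 0.971. In the Sirt3 body the genotype difference with the covariate was 4.63 ± 1.05 points at 3 months, in place of 6.45. At 13 months it was -3.87 ± 3.01 points, in place of -7.17. The Sirt3 body difference with age in WT mice was 3.11 ± 2.1 points, in place of 1.75. Lists of other cell types had narrower ranges for neurons, whose mean over 8 genes ran from 15.4% to 17.5%, and for the oligodendrocyte lineage, 7 genes, from 27% to 30.1%. Leukocyte and border macrophage genes, 6 of 7 with CpGs, ran from 52% to 61.5%, astrocyte genes, 6, from 33.8% to 39.5%, and vessel genes, 5, from 48.9% to 61.8%. The part of cell content in the differences above was not tested beyond that covariate.

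Related genes outside the 48 were counted in the same fits: 30 further enzymes and 18 partner subunits. No region, end or body of these lists was called in any comparison. For genotype at 13 months 20 enzyme regions and 10 partner regions were tested, and 15 and 7 of them were higher in HEM mice. Jarid2, a polycomb partner, was the one with an unadjusted p under 0.05, at 0.755 points. For genotype at 3 months 7 of 19 and 4 of 10 were higher. For age in WT mice they were 9 of 19 and 6 of 10, with unadjusted p under 0.05 for Smyd3 (2.16 points) and Ash2l (3.04 points). For age in HEM mice they were 16 of 20 and 7 of 10, and Ash1l, Phf2, Nsd1 and Men1 had an unadjusted p under 0.05, by 0.559 to 1.22 points. In that comparison the body of Ash1l, a methyltransferase, differed by 7.07 points (adjusted p = 0.34). Of all coding gene regions 50.6% were higher in HEM mice at 13 months and 45.9% at 3 months. With age 63.9% were higher in WT and 66% in HEM mice.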

How the data were processed

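Reduced representation bisulfite sequencing libraries were deposited as 1 file each, listing the percent methylation the authors gave every CpG, with the 2 strands of a CpG apart. The submitters' processing notes name the mm10 build, Bowtie2 and methylKit. Versions and filters are not given in the sources used here. The deposited percent values carry no read counts, so the depth of every value is unknown and no binomial interval could be given. The table of the whole series held 1 column of values equal to no library, which was not used.

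The CpGs listed at both ages, 1132618 of 1234494 at 3 months and 1151247 at 13 months, were averaged per gene over the gene with 1 kb either side, its ends and its body (protein-coding genes, at least 3 CpGs). Features whose mean lay from 5 to 95% in the compared groups entered the test as log2((percent + 1) / (100 - percent + 1)) with limma 3.58.1 in R 4.3.3, each comparison fitted across all genes or CpGs with Benjamini-Hochberg adjustment over all of them. Called features had an adjusted p below 0.05 and differed by at least 5 points (genes) or 10 points (CpGs). Differences are in percentage points. The interaction used all 20 libraries and needed the adjusted p alone. The fits were first tested on simulated data.

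The genes, their classes and the related lists were chosen with earlier results of these data known. In each comparison the text names the 5 member regions of smallest p in each direction (3 regions in all for age and the interaction), the 3 ends, 3 bodies and 3 CpGs of smallest p. For levels it names the highest and lowest region of each class, the 3 highest ends, the 3 lowest bodies and the 4 regions of widest range. Other genes named singly, the variable stretches and the relations to the marker genes were chosen after values were seen. Nothing says how far replicates were processed separately beyond being extracted one by one, so p-values measure the spread between these libraries. Alternatives were plain percent values, a larger offset, no filter on the mean, a higher minimum of CpGs, the gene without its margin, the end width, strands averaged, a variance trend, the marker covariate, the replicate block and each library left out. The CpGs listed at that age alone were added after seeing the data. Another related list is not reported here. The covariate values in points are from ordinary least squares, added after seeing the data.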

Additional observations from a re-analysis of the deposited data

Results flagged for a closer look

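In 11 of 192 groups (5.73%) over 48 named features, 1 library stood farther from the rest of its group than Dixon's limit allows. Chance flags about 1 in 20 groups.

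Among the WT mice of 3 months, replicate 5 stood apart in the Kdm2b region, at 30.6% with the others from 31% to 31.1%, and in the Kdm7a body, at 0.904% with the others up to 0.135%. Among the HEM mice of 3 months, replicate 1 stood at 19.6% in the Dot1l region (others from 21% to 21.2%), replicate 7 at 38.4% in the Hdac9 region (others at 38.2%) and replicate 3 at 84.8% in the Sirt6 body (others from 88.2% to 88.7%).

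Among the WT mice of 13 months, replicate 1 stood at 10.4% in the Kdm4a ends (others from 13.9% to 14.4%) and replicate 6 at 6.52% in the Kdm5a region (others from 6.31% to 6.34%). Among the HEM mice of 13 months, replicate 7 stood at 13.4% in the Kdm4a ends (others from 15.2% to 16%) and replicate 3 at 0.553% in the Ep300 region (others from 0.854% to 1.07%). In the same group, replicate 11 stood at 1.21% in the Ezh1 region (others from 0.0601% to 0.326%) and replicate 1 at 0.27% in the Kdm7a region (others from 0.129% to 0.183%).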

How the results depend on the processing

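The count of members called was 0 in all 5 comparisons under every alternative run, 240 fits with a library left out and 174 others. The smallest adjusted p of any member in these was 0.0423, for a CpG compared by age in HEM mice with no filter on the mean, whose difference was under 10 points. With a library left out, the smallest member adjusted p for genotype at 13 months was 0.0806, among CpGs. Differences of named members kept their sign in 850 values with a library left out and in 647 others. The sign turned in 2: Kdm5a region at 3 months, -0.0254 points with the CpGs of that age, and Ehmt2 ends by age in HEM mice, -0.172 points with ends of 2 kb. The cause was not tested. Leaving out a library moved 62 of the 850 values, from 35 of 74 differences, by over 1.5 times, 17 of them through replicate 1 of the WT mice of 13 months.

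With the values of adjacent positions averaged, the mean over member ends was 5.157% in WT and 5.078% in HEM mice of 3 months, and 5.037% and 5.18% at 13 months, and the body mean in HEM of 3 months was 61.18%. With ends of 2 kb, which moves CpGs from bodies to ends, the end means were 6.55%, 6.451%, 6.461% and 6.535% and the body means 70.14%, 70.23%, 70.53% and 70.72% in the same order. Of the levels of single members by group, 73 of 348 moved by more than 1 SD with strands averaged and 167 of 344 with ends of 2 kb. The relations of the Sirt2 ends and the Sirt3 body to the marker genes kept their sign and threshold in 40 runs with a library left out and in 2 others.

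Same-numbered libraries did not deviate together throughout. Their correlations were 0.147, 0.328 and 0.0507 for genotype at 13 months, 0.114 and -0.202 at 3 months, and 0.028, -0.227 and -0.0489 for age in HEM mice. At 13 months each number correlated best with its own. With the replicate number as a block 0 members were called, and the smallest member adjusted p for genotype at 13 months was 0.465 among regions and 0.443 among bodies. No block could be fitted for age in WT mice, which share 1 number. Unknown depth limits single CpGs most, and gene means over few CpGs, such as the 8 of the Sirt3 body, after them.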
